A study of Mus musculus with 8 samples.

Results

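The samples described here are the 4 arrays of wild-type (WT) mouse thoracic annulus fibrosus, out of 8 arrays in the series, and the genes with the highest signal on them. The annulus fibrosus is the ring of layered fibrocartilage around the nucleus pulposus of the intervertebral disc. The WT arrays were 2 from mice of 2 months and 2 from mice of 6 months of age, on the Black 6 background. The other 4 arrays came from ENT1-null mice of the same ages, which lack exons 2 to 4 of Slc29a1, the gene of equilibrative nucleoside transporter 1. They entered here only the comparison by age, through its estimate of spread and its filter of genes by mean level. Each array held RNA pooled from 5 to 6 thoracic annulus tissues, 200 ng of total RNA per labelling, so that the values are averages over a pool. The labels do not say whether the tissues of a pool, or the pools, came from separate mice, and p-values therefore measure only the spread between these arrays. No transgene or treatment was named for the WT mice.

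Values were log2 levels made by RMA, a method that corrects background, makes the arrays' distributions equal and combines the probes of a probe set. Each of 22180 genes was read from the probe set with 1 gene symbol that had the highest mean over the 4 WT arrays, and genes were ranked by that mean. A rank is of a probe set's signal, which depends on its probes as well as on the mRNA, and so it does not order the genes by amount of mRNA. A gene is called "in the top 10%" when it was among the 2218 highest, which means a level of at least 9.28. The median gene stood at 7.11. Per-array values are given in the order 2 months array 1, 2 months array 2, 6 months array 1 and 6 months array 2, and errors are SD over the 4 arrays (n = 4) unless stated. Members were lists of 231 matrix genes, 470 transcription factor genes, 512 receptor genes and 479 transporter genes that had such a probe set.

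The annulus is built and kept by fibrochondrocytes, which secrete fibrillar collagens, the large aggregating proteoglycan aggrecan and a set of small leucine-rich proteoglycans that bind collagen fibrils. The transcription factor Sox9, with Sox5 and Sox6, drives the cartilage genes of such cells. The outer annulus is closer to tendon and ligament, where Scx and Mkx act, and it joins the bony vertebra. The disc has few vessels, so that its cells take up glucose and amino acids and export acid through membrane transporters over long diffusion distances.

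Promoters of matrix genes are shown first, because the gene of rank 1 and 3 other matrix genes in the top 10% share a letter pattern just before the start of transcription. The RefSeq promoter table (GRCm38.p6) held 168 of the 231 matrix genes. The letters TATAAA, the core of a TATA box, began 40 to 20 bases before an annotated start, on the strand of the gene, in 10 of them (5.95%). The share was 2.86% of the 16986 array genes in the table and 2.41% of all 27018 genes in it, with no test made. The class shares were 2.96% for transcription factor genes, 1.75% for receptor genes and 2.65% for transporter genes. The 4 matrix genes of the top 10% with the match are printed as the 100 bases before the start, 5′ to 3′ on the gene's strand, with TATAAA in capitals. They are Chad at chr11:94564947-94565046 (plus strand), Ecm1 at chr3:95739570-95739669 (minus strand), Col10a1 at chr10:34389881-34389980 (plus strand) and Ccn1 at chr3:145649986-145650085 (minus strand).
Chad: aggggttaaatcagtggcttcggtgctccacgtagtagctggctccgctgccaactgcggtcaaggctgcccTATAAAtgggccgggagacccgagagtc
Ecm1: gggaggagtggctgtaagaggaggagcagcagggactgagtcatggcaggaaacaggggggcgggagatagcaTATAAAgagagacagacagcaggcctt
Col10a1: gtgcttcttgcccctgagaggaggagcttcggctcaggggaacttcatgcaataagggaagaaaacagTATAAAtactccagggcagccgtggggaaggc
Ccn1: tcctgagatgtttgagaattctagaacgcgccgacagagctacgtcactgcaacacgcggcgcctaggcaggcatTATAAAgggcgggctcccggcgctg

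In these windows the match began 28 bases before the start in Chad, 27 in Ecm1, 32 in Col10a1 and 25 in Ccn1. Chad encodes the cell-binding cartilage protein chondroadherin, Ecm1 an extracellular matrix glycoprotein, Col10a1 the collagen of hypertrophic cartilage and Ccn1 a matricellular protein. The other 6 matrix genes with the match ranked far lower, from Igfbp4 at rank 2715 to Otor at rank 18065, so that the pattern was not limited to genes of high signal. Of the 20 highest matrix genes, 10 had a promoter in the table, and among those 10 Chad alone held the match in that window. Only the exact letters were counted, and near forms, such as tatataag in the promoter of Cilp, were not. The gene of rank 2, Cytl1, had none in its window, shown for contrast at chr5:37735419-37735518 (plus strand).
Cytl1: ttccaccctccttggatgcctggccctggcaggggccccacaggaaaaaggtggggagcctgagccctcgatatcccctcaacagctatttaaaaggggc

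Searched anywhere in the 300 bases of a promoter and on both strands, TATAAA was found in 29 of the 168 matrix genes (17.3%) and in 14.3% of array genes. The letters AACAATG, of the kind SOX proteins bind, were found in 4 of the 168 matrix genes (2.38%) and in 3.81% of array genes, and in 0 of the 10 promoters of the highest matrix genes. The 2 patterns can share at most 2 bases. A match is a description of these letters, and no match says nothing about the factor.

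The 4 arrays were close to each other over all genes. Pearson's r across genes lay between 0.9854 and 0.9917 for the 6 pairs of WT arrays, a description since genes are not independent replicates, and array medians lay between 6.803 and 6.819. Levels of tissue markers were read next, as a description and not as a check of the tissue label. The lists were chosen with earlier results of these data known. The annulus list also shares Col2a1, Acan, Comp and Sox9 with the chondrocyte list, so that it cannot tell annulus from other cartilage. All 16 annulus and fibrochondrocyte markers stood above the median gene and 14 were in the top 10%, with a mean of 11.70, 11.85, 11.45 and 11.47 in the 4 arrays. Among 17 chondrocyte markers 12 were in the top 10%. Of 9 tenocyte markers 8 stood above the median gene and 3 were in the top 10%, Fmod at rank 66, Col12a1 at 677 and Thbs4 at 1193. Scx, which marks tendon and outer annulus cells, ranked 6092 with 8.14 ± 0.23, Mkx ranked 2786 with 9.05 ± 0.18, and Tnmd ranked 11157 with 7.10 ± 0.41, about the level of the median gene. Of 9 notochord and nucleus pulposus markers 6 stood above the median gene, among them Krt8 (9.18), Foxa2 (8.29) and Krt18 (7.94). Noto (5.78) and Shh (5.15) were below 6.21, the 30th percentile of gene means used as the filter of the age comparison, and Krt19 stood at 7.80. The notochord list also holds Car3 at rank 36 and Cd24a at rank 56, which muscle, fat and blood cells use as well.

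Genes of other tissues were present, and the means of some of their lists differed widely between arrays. The mean of 18 skeletal muscle genes was 8.13, 9.32, 10.33 and 10.20, with 11 of the 18 in the top 10% and all 18 higher in both 6 month arrays than in both 2 month arrays, an order found in 13.5% of all genes tested by age. The mean of 15 neutrophil and precursor genes was 8.69, 9.86, 10 and 8.43, and all 15 were higher in 2 months array 2 and 6 months array 1 than in the other 2 arrays. That array split was noticed in the values, and its share over all genes was not counted. It was not particular to neutrophil genes, since all 19 mitosis and G2/M genes measured had it too. The neutrophil granule gene Ngp reached rank 133 with 11.13, 12.12, 12.22 and 11.16. Of 14 erythroid genes listed, 6 were measured, without the globin genes and Alas2. These 6 had a mean of 7.18, 7.73, 8.41 and 7.59. Each was highest in 6 months array 1, an order whose share over all genes was not counted. T and NK cell markers had 0 of 8 in the top 10% and a list mean of 6.11 to 6.5. In pooled tissue, fewer cells of a type and less RNA per cell cannot be told apart. The part of these tissues in the levels given here was not tested.

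**Figure D1:**
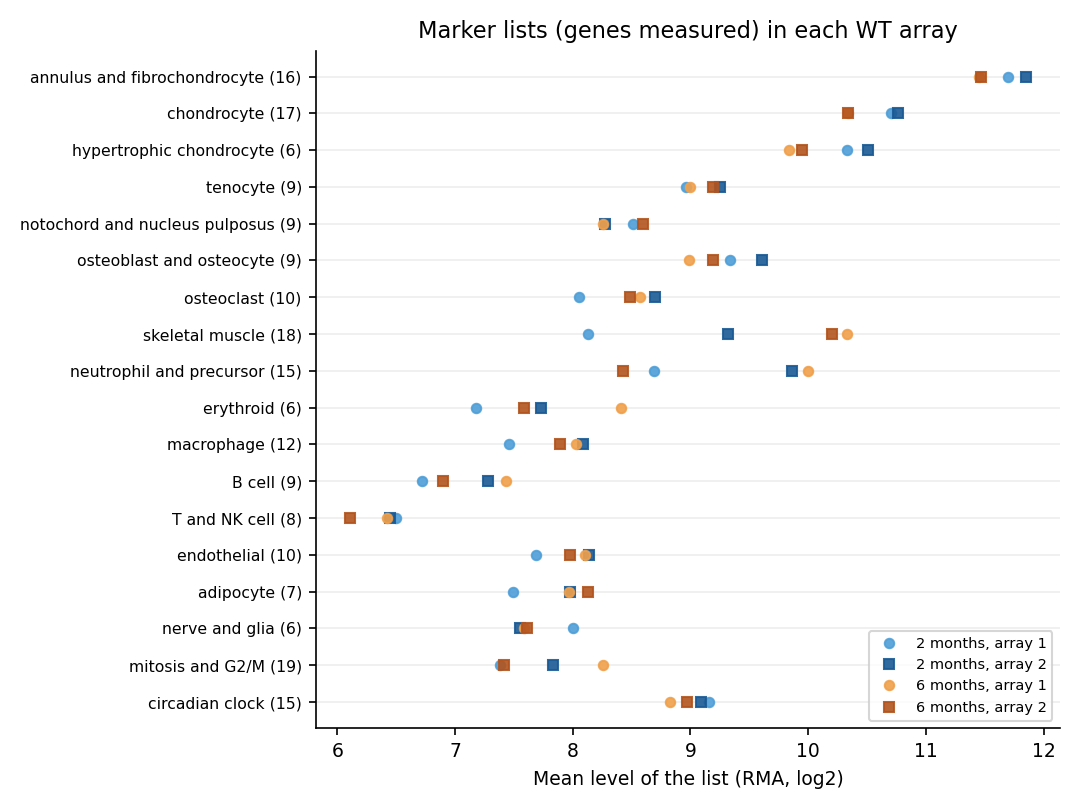
Mean log2 level (RMA) of each marker list, with the number of its genes measured in parentheses, in each of the 4 WT arrays; each point is 1 array. Annulus markers lie between 11.45 and 11.85 in all 4 arrays, whereas the skeletal muscle list runs from 8.13 to 10.33 and the neutrophil list from 8.43 to 10.

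Secreted matrix genes and genes of the mitochondrial genome made up most of the highest ranks. Among the 20 highest genes were 8 matrix genes and 7 genes encoded by the mitochondrial genome, a group named after the values were seen. The others were Rn7sk, a small nuclear RNA that restrains transcription elongation, the translation factor Eif4a1, the intermediate filament gene Vim, Rpph1, the RNA of ribonuclease P, and Rps6, a protein of the small ribosomal subunit. ND4, a subunit of respiratory complex I, was the highest mitochondrial gene, at rank 3 with 13.47, 13.46, 13.55 and 13.50. ND6, the complex I gene on the opposite strand of that genome, ranked only 2491 with 9.23, 9.0, 9.24 and 9.18. Of the 100 genes highest at 2 months, 90 were also among the 100 highest at 6 months.

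The 4 classes differed in how much of each reached high signal. Of matrix genes 75 of 231 (32.5%) were in the top 10%, against 10% of all genes by construction. The share was 18.7% for transcription factor genes (88 of 470), 13.5% for receptor genes (69 of 512) and 12.7% for transporter genes (61 of 479). Within the 100 highest genes were 25 matrix genes, 2 transcription factor genes, 1 transporter gene and 0 receptor genes. The 68 cytosolic ribosomal protein genes had 30 in the top 10%, and 80 nuclear genes of the respiratory chain had 26. These shares describe lists chosen for this tissue and were not tested.

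**Figure D2:**
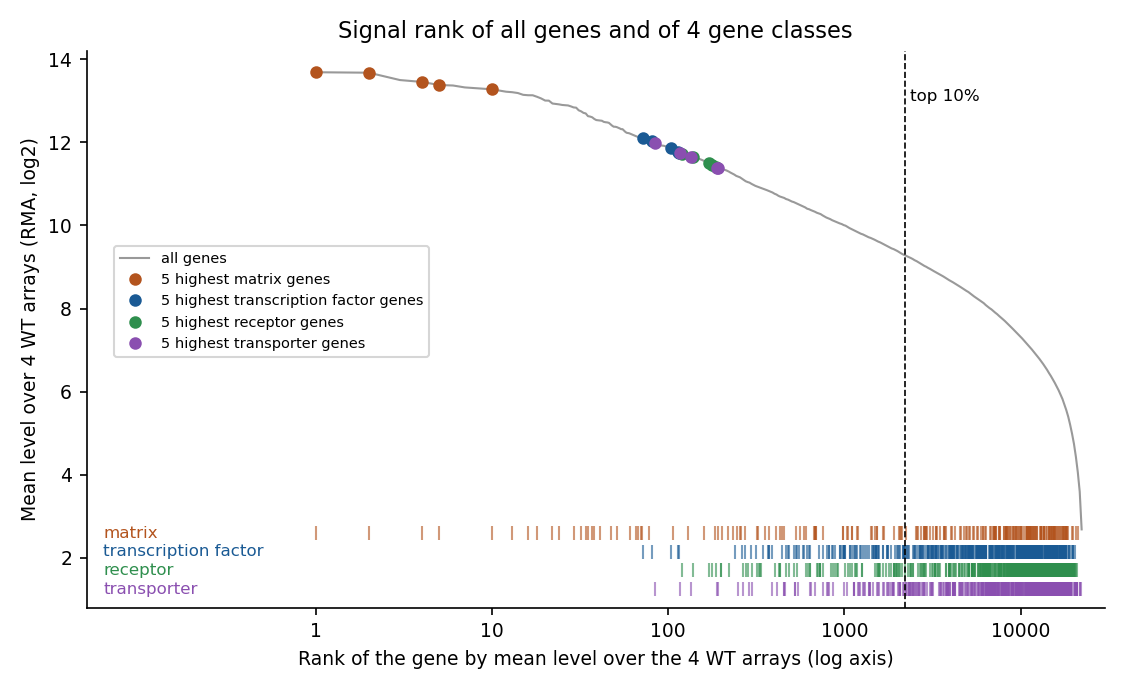
Mean log2 level (RMA) over the 4 WT arrays against rank on a log axis, for all 22180 genes (grey line) and the 5 highest genes of each class (points); short vertical marks below show the rank of every member of a class, and the dashed line is the end of the top 10% at rank 2218. Matrix genes begin at rank 1, transcription factor genes at 72, transporter genes at 84 and receptor genes at 119.

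Chad had the highest mean of all genes, 13.68 ± 0.01, with 13.70, 13.68, 13.67 and 13.69. Cytl1, a small secreted protein made by chondrocytes, followed at rank 2 with 13.68, 13.71, 13.66 and 13.63. The values of these leading genes differed little between arrays, and the median SD of the 20 highest genes was 0.04 against 0.11 for ranks 101 to 2218. The highest value of the whole table was 13.81. The leading genes lay near it, and whether the upper end of the scale narrowed their spread was not tested.

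Small leucine-rich proteoglycans were prominent, with 10 of 17 in the top 10%. Decorin (Dcn), which binds collagen fibrils, ranked 5 with 13.42, 13.38, 13.38 and 13.33. Biglycan (Bgn) ranked 10 with 13.31, 13.27, 13.24 and 13.27, and Prelp, which anchors matrix to basement membrane, ranked 18 with 13.11, 13.15, 13.04 and 13.06. Both genes have a second, dimmer probe set, and the mean of the pair was 11.73 for Bgn and 10.47 for Prelp. Fibromodulin (Fmod), a regulator of fibril assembly in tendon and annulus, lay just outside the 20 highest matrix genes, at rank 66 with 12.18, 12.19, 12.04 and 12.15. It too has a second probe set, and the mean of its pair was 10.76. Osteomodulin (Omd) and Ecm2 followed at ranks 130 and 183.

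Cartilage glycoproteins formed the matrix group with the highest share, 16 of 25 in the top 10% and 9 in the 100 highest. Clec3a, a cartilage lectin, ranked 16 with 13.18, 13.14, 13.07 and 13.12. Matrix Gla protein (Mgp), an inhibitor of calcification, ranked 24 with 12.95, 13.04, 12.79 and 12.86. Ucma, a second Gla-rich cartilage protein, ranked 29 with 12.99, 12.99, 12.71 and 12.66. In Mgp and Ucma both 2 month arrays stood above both 6 month arrays, an order found in 35.9% of all genes tested by age. Comp, a pentameric protein that binds collagen, ranked 41 with 12.70, 12.67, 12.41 and 12.30. Cilp, known from the intermediate layer of cartilage and from the disc, ranked 51 with 12.48, 12.46, 12.25 and 12.27. Cnmd, the anti-angiogenic protein chondromodulin, ranked 61 and lay between 12.09 and 12.29. Snorc, a cartilage transmembrane proteoglycan, ranked 38, and Thbs1, a thrombospondin placed in this list, ranked 35. In all of Comp, Cilp, Cnmd, Snorc and Thbs1 the arrays of the 2 ages did not overlap, with the 2 month arrays higher, the order of 35.9% of all genes.

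Large proteoglycans and link proteins had 5 of 17 in the top 10%. Lubricin (Prg4), the boundary lubricant of joint surfaces and of layers that slide, ranked 13 with 13.25, 13.17, 13.18 and 13.21, and its arrays overlapped between ages. Aggrecan (Acan), which holds water in the disc, ranked 32 with 12.92, 12.85, 12.50 and 12.71. Versican (Vcan) ranked 78 with 12.10, 12.03, 12.10 and 11.96, and Hapln1, the protein that links aggrecan to hyaluronan, ranked 106 with 12.08, 11.95, 11.61 and 11.75. Acan and Hapln1 were higher in both 2 month arrays, as were 35.9% of all genes tested by age, and Vcan overlapped.

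Matricellular and adhesive glycoproteins had 20 of 69 in the top 10%. Fibronectin (Fn1) ranked 4 with 13.56, 13.54, 13.36 and 13.34. Igfbp7 ranked 22 with 13.03, 12.99, 12.81 and 12.89. Abi3bp, a matrix protein of mesenchymal cells, ranked 34 with 12.80, 12.69, 12.64 and 12.64. All 3 stood higher in both 2 month arrays, as did 35.9% of all genes. Ccn2, a growth factor-like matricellular protein needed for disc matrix, ranked 47 and ranged more widely, with 12.74, 12.59, 12.05 and 12.23. Its second probe set was dimmer, and the mean of the pair was 10.25. Tenascin C (Tnc), a protein of tendon and of matrix under strain, ranked 680 with 9.63, 10.75, 10.39 and 10.54, and 2 months array 1 stood below the others.

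Bone matrix genes were among the highest too, with 5 of 12 in the top 10%. Sparc (osteonectin) ranked 37 with 12.74, 12.67, 12.44 and 12.54. Bone sialoprotein (Ibsp), a protein of mineralising tissue, ranked 70 with 12.35, 12.46, 11.79 and 11.82, the widest SD (0.35) among the 100 highest genes. The alkaline phosphatase gene Alpl, which clears the mineralisation inhibitor pyrophosphate, ranked 158 with 11.89, 11.93, 11.09 and 11.34. Osteocalcin (Bglap), the defining product of mature osteoblasts, ranked 12345 with 6.85, 7.15, 6.57 and 6.90, below the median gene on average. Sp7, the osteoblast regulator, ranked 1558 with 9.70, 9.80, 9.41 and 9.52. Of 9 osteoblast and osteocyte markers measured, 7 stood above the median gene and 4 were in the top 10%. Phex (8.83), Sost (8.32) and Mepe (8.29) were above the median gene, and Dmp1 (6.73), like Bglap, was below. Bglap2, Bglap3 and Spp1 had no probe set with 1 gene symbol. Alpl is also on the hypertrophic chondrocyte list, of which 5 of the 6 genes measured were in the top 10%. Which cells gave the signal of these genes was not tested. Of 10 osteoclast markers, 8 stood above the median gene and 4 were in the top 10%.

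**Figure D3:**
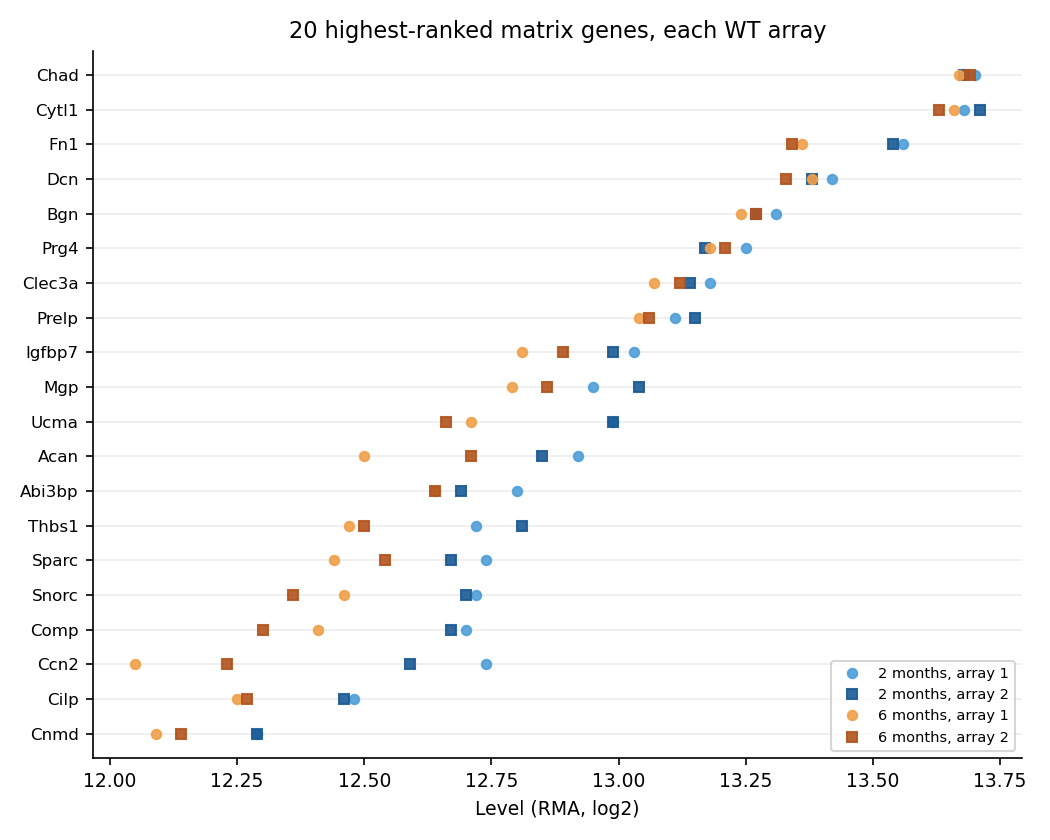
Log2 level (RMA) of the 20 highest-ranked matrix genes in each of the 4 WT arrays, ordered by rank; blue points are 2 month arrays and orange points 6 month arrays. The spread is smallest in Chad, 13.67 to 13.70, and largest in Ccn2, 12.05 to 12.74.

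Of collagen genes, 12 of 44 were in the top 10% (27.3%), close to the 29.4% of large proteoglycans and link proteins, and 0 were in the 100 highest. Above the median gene were 35 of the 44. Col2a1, the main collagen of cartilage and inner annulus, ranked 160 with 11.85, 12.07, 11.07 and 11.17. Col1a1, the main collagen of tendon, bone and outer annulus, ranked 232 with 11.07, 11.94, 11.08 and 10.87. The 2 genes behaved differently over the arrays, since Col2a1 was high in both 2 month arrays whereas Col1a1 was high only in 2 months array 2. Both 2 month arrays stood above both 6 month arrays in 35.9% of all genes tested by age. Col1a2 ranked 529 and had the same order of arrays as Col1a1 at its ends, with 10.48, 11.17, 10.36 and 10.16. Col6a1, of the pericellular microfibrils, ranked 192 with 11.54, 11.68, 11.23 and 11.05, and the mean of its 2 probe sets was 9.94. Its partners Col6a2 and Col6a3 ranked 410 and 442. Col10a1, the marker of hypertrophic chondrocytes, ranked 352 with 11.24, 11.34, 10.37 and 10.52. Col12a1, which lies on fibril surfaces in tendon, ranked 677, Col3a1 ranked 1040, Col11a1 ranked 1109 and Col27a1 ranked 1497. Type IX collagen, which coats type II fibrils, lay just outside the top 10%, with Col9a1 at rank 2582 and Col9a2 at 2848. Basement membrane genes had only 2 of 26 in the top 10%, Ntn4 and Lamb2, and elastic fibre genes had 5 of 21, led by Efemp1 at rank 324 with 10.98, 10.97, 10.82 and 10.93.

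**Figure D4:**
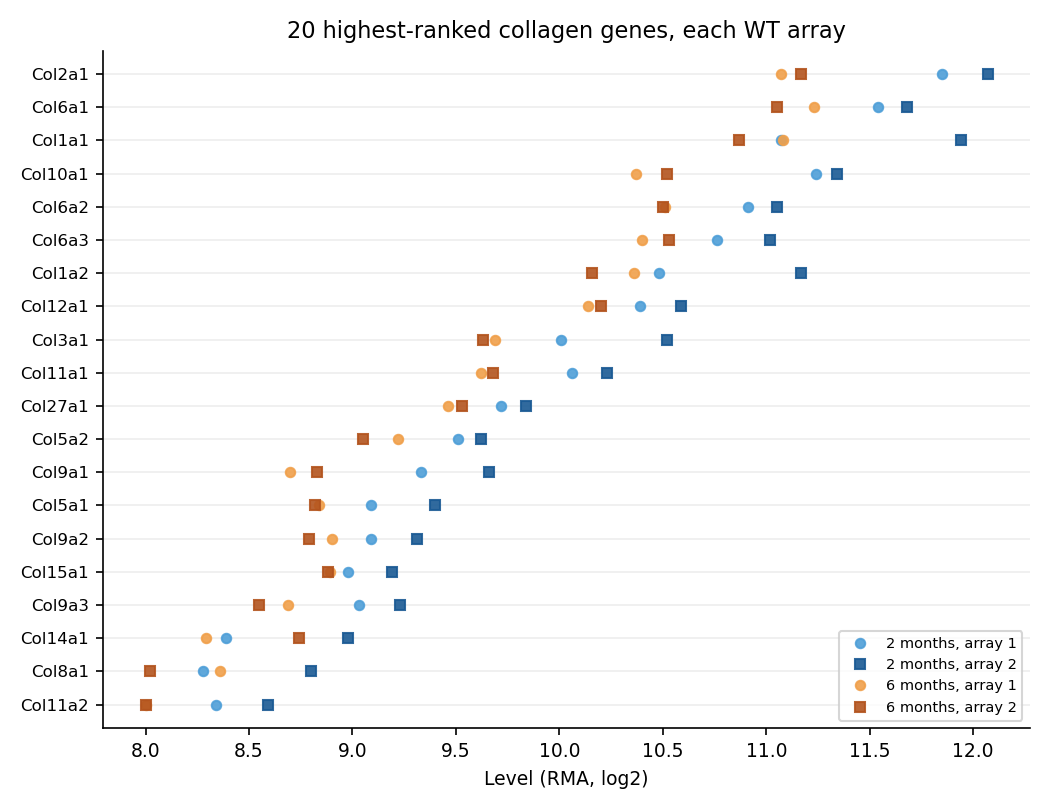
Log2 level (RMA) of the 20 highest-ranked collagen genes in each of the 4 WT arrays, ordered by rank; blue points are 2 month arrays and orange points 6 month arrays. Col2a1 and Col10a1 have both 2 month arrays above both 6 month arrays, as do 35.9% of all genes tested by age. Col1a1 is highest in 2 months array 2 and near 11 in the other 3.

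Sox9, the master regulator of cartilage genes, was the highest transcription factor gene, at rank 72 with 12.21, 12.17, 11.92 and 12.08. Its partners Sox6 and Sox5 were also in the top 10%, at ranks 1519 and 1740. Sox6 hardly differed between arrays, with 9.64, 9.62, 9.64 and 9.61. They were the only 3 of 19 SOX genes in the top 10%. The group of NFI, TEAD, MEF2, SRF and NFAT factors had the highest share of the class, 15 of 30. Mef2a, a MADS box factor of muscle and of maturing chondrocytes, ranked 81 with 12.20, 12.20, 11.81 and 11.93. Nfat5, which switches on osmoprotective genes in disc cells, ranked 271 with 11.18, 11.10, 10.97 and 11.05. Nfib ranked 366, and Tcf4, an E protein, ranked 372.

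The subgroup of bHLH, hypoxia and clock factors had 11 of 54 in the top 10% (20.4%), near the share of the class. Of 15 circadian clock genes, a list that crosses the classes, 6 were in the top 10%. Nr1d1, a repressor of the circadian clock, ranked 104 with 12.12, 11.99, 11.52 and 11.77. Per1 (10.90, 10.70, 9.64 and 10.17) and Dbp (9.68, 9.31, 8.27 and 8.80) had the same order of arrays. Tef (7.95, 8.0, 7.35 and 7.52), Hlf (7.42, 7.46, 7.23 and 7.41) and Ciart (7.99, 7.69, 7.35 and 7.91) did not, although 6 months array 1 was lowest in these as well. Arntl, of the positive arm of the clock, had the order of Nr1d1 reversed (8.42, 8.63, 9.24 and 8.86). Hif1a, the oxygen-sensing factor that disc cells keep active, ranked 345 with 10.93, 10.80, 10.85 and 10.94, and the mean of its 2 probe sets was 9.19. Xbp1 and Creb3l2, which serve the secretory pathway, ranked 293 and 263, and Xbp1 lay between 10.92 and 11.06. Other stress factors were outside the top 10%, with Atf6 at rank 2964, Ddit3 at 5761 and Atf4 at 6144. Id2, an inhibitor of bHLH factors, ranked 115 and lay between 11.63 and 11.84.

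Zbtb20, a zinc finger factor of growth plate cartilage, ranked 113 with 11.87, 11.79, 11.60 and 11.80. Peg3, an imprinted zinc finger gene, ranked 238 and split each age, with 11.47, 11.11, 10.81 and 11.47. Snai2, Trps1 and Dlx5, regulators of mesenchyme and growth plate, ranked 371, 389 and 466, and Trps1 lay between 10.73 and 10.87. Just below the 15 highest of the class, Zbtb16, a zinc finger factor induced by glucocorticoids, ranked 441 with 11.26, 10.91, 10.11 and 10.45. Both 2 month arrays of Zbtb16 were above both 6 month arrays, as in 35.9% of all genes tested by age. The SD of Zbtb16, 0.51, was far above the 0.06 of Trps1. Of 36 HOX genes, the positional code of the trunk, 2 were in the top 10%. These were Hoxc8, at rank 517 with 10.40, 10.52, 10.61 and 10.70, and Hoxc6, at rank 943 with 10.14, 10.06, 9.91 and 10.07.

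A few immediate early genes, which respond within minutes to handling or stimuli in many cells, spread widely over the arrays, and those named here were picked after their values were seen. The subgroup of immediate early AP-1 and ATF factors as a whole had a median SD of 0.11, equal to that of the class, and Jun (8.87 to 9.31) and Junb (9.70 to 10.24) spread less. Fos ranked 1217 with 10.24, 8.46, 10.65 and 9.91. Nr4a1 ranked 1175 with 10, 8.76, 10.68 and 9.95, and Egr1, in the tendon marker list, read 8.99, 8.04, 9.32 and 8.81. In Fos, Nr4a1 and Egr1 2 months array 2 was lowest and 6 months array 1 highest. Of 9 C/EBP and PAR bZIP genes, 0 were in the top 10%, and their median SD of 0.33 was the largest among the transcription factor subgroups.

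The highest receptor gene was Sdc4, a heparan sulfate syndecan of focal adhesions, at rank 119 with 11.84, 11.82, 11.60 and 11.61. It belongs to the group of matrix receptors other than integrins, 11 of which were in the top 10% out of 22. Gpc6, Cd47 and Sdc3 of that group ranked 299, 317 and 332, and Cd47, a receptor for thrombospondin, lay between 10.86 and 11.06. Integrins had 4 of 25 in the top 10%, led by Itga5, the fibronectin receptor chain, at rank 538 with 10.56, 10.54, 10.40 and 10.57. Scara3, a scavenger receptor family member, ranked 139 with 11.71, 11.79, 11.60 and 11.45.

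Growth factor receptors of the skeleton were well represented. Bmpr2, the type II receptor for bone morphogenetic proteins, ranked 170 with 11.48, 11.36, 11.56 and 11.58. Both 6 month arrays were on top, as in 13.5% of all genes tested by age. Tgfbr3, the TGF-beta co-receptor betaglycan, ranked 199 with 11.53, 11.44, 11.23 and 11.24. In the whole group 6 of 14 BMP and TGF-beta receptor genes were in the top 10%. Fgfr1 ranked 176 with 11.68, 11.65, 11.20 and 11.29, and Fgfr2 ranked 429 with 10.80, 10.69, 10.72 and 10.58. The arrays of Fgfr1 were higher at 2 months without overlap, an order found in 35.9% of all genes tested by age. Fgfr1 did not pass (limma adjusted p = 0.193), and Fgfr2 overlapped. Il6st and Lifr, signalling chains for the interleukin 6 family, ranked 334 and 430.

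The hedgehog pathway supplied 4 of the receptor genes named here. Ptch1, the hedgehog receptor and itself a target of the pathway, ranked 200 with 11.47, 11.36, 11.28 and 11.32. Smo, the transducer that Ptch1 restrains, ranked 275 with 11.30, 11.22, 10.93 and 10.80. The co-receptors Cdon and Boc ranked 186 and 404, with Cdon between 11.27 and 11.49 and Boc between 10.64 and 10.85. The ligand gene Shh was among the lowest markers, at 5.15, whereas Ihh, the ligand of growth plate cartilage, ranked 6879 with 8.06, 8.13, 7.84 and 7.83. Among Wnt, hedgehog and Notch receptors 12 of 34 were in the top 10%, including Lgr6 at rank 425. Lrp1, mainly an endocytic lipoprotein receptor but placed in this list, ranked 222.

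Of 245 genes for hormone, adenosine and other G protein-coupled receptors, 9 were in the top 10% (3.67%). The highest were adhesion receptors. Adgrg6, variants of which are linked to scoliosis and which acts in disc cartilage, ranked 264 and lay between 10.91 and 11.31, and Adgrg2 ranked 328 with 11.04, 10.72, 10.88 and 11.04. Pth1r, the receptor for parathyroid hormone and its related protein, ranked 1140 with 10.10, 10.50, 9.37 and 9.53. The only adenosine receptor with a single-gene probe set was Adora3, at rank 15777 with 6.20, 6.24, 6.13 and 6.15, below the 30th percentile of 6.21 on average. The other 3 adenosine receptors were not analysed here.

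Amino acid and osmolyte carriers led the transporter genes. Slc38a2, a sodium-coupled carrier of small neutral amino acids that is induced by hypertonic stress, ranked 84 with 12.27, 12.13, 11.69 and 11.87. Slc6a6, the taurine carrier, ranked 116 with 12.08, 11.88, 11.40 and 11.60, and Slc6a12, a carrier of betaine and GABA, ranked 461 with 10.83, 10.79, 10.37 and 10.60. All 3 are known to serve osmotic balance. Their array order was the same, with 2 months array 1 highest and 6 months array 1 lowest. That order was not particular to these carriers, since Acan, Hapln1, Ccn2 and Nr1d1 had it too. Its share over all genes was not counted. Slc38a3, a glutamine carrier, ranked 249. Amino acid carriers as a group had 11 of 62 in the top 10%.

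Ion pumps had the highest share among transporter groups, 15 of 60. Atp6v0e and Atp6ap1, parts of the vacuolar proton pump, ranked 135 and 286, and Atp6v0e lay between 11.55 and 11.73. The plasma membrane calcium pump Atp2b1 ranked 266 and lay between 11.02 and 11.18. Atp2a1, the calcium pump of fast skeletal muscle, ranked 300 with 9.33, 11.07, 11.86 and 11.67, and its SD of 1.15 was many times that of its widely used relative Atp2a2 (0.06, rank 526). Atp2a1 is a member of the muscle list described above, and its array order was that list's. The part of muscle RNA in its rank was not tested, and with 2 months array 1 alone its level was 9.33.

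Ank, the transporter that delivers pyrophosphate, an inhibitor of mineral, to the outside of the cell, ranked 190 with 11.55, 11.39, 11.29 and 11.34. The phosphate carrier Slc20a1 ranked 388 with 10.79, 10.89, 10.77 and 10.72. Slc2a1, the basal glucose carrier, ranked 191 with 11.47, 11.40, 11.20 and 11.47, and the mean over its 2 probe sets was 8.56. In the remaining groups, nucleotide sugar carriers, which feed glycosylation, had 4 of 26 in the top 10% with Slc35e3 at rank 414. Aquaporins had 0 of 11. The list of ABC transporters had 1 of 48, Abce1, a member of the ABC family that is not a membrane carrier. Next in that list came Abca1, at rank 2659.

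The gene deleted in the other arm of the series, Slc29a1, was the first gene below the 15 highest transporter genes. It ranked 527 with 10.71, 10.69, 10.34 and 10.43, and the mean over its 2 probe sets was 7.69, so that its rank rests on the brighter probe set. The other nucleoside transporters ranked lower. Slc29a3, a lysosomal member, ranked 3669 with 8.86, 8.91, 8.67 and 8.61. Slc29a2, the second plasma membrane member, ranked 9606 with 7.40, 7.38, 7.39 and 7.41. The concentrative genes Slc28a2, Slc28a1 and Slc28a3 ranked 10817, 13974 and 15830, and Slc29a4 ranked 12007. Slc29a1 was therefore the only 1 of 7 in the top 10%.

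**Figure D5:**
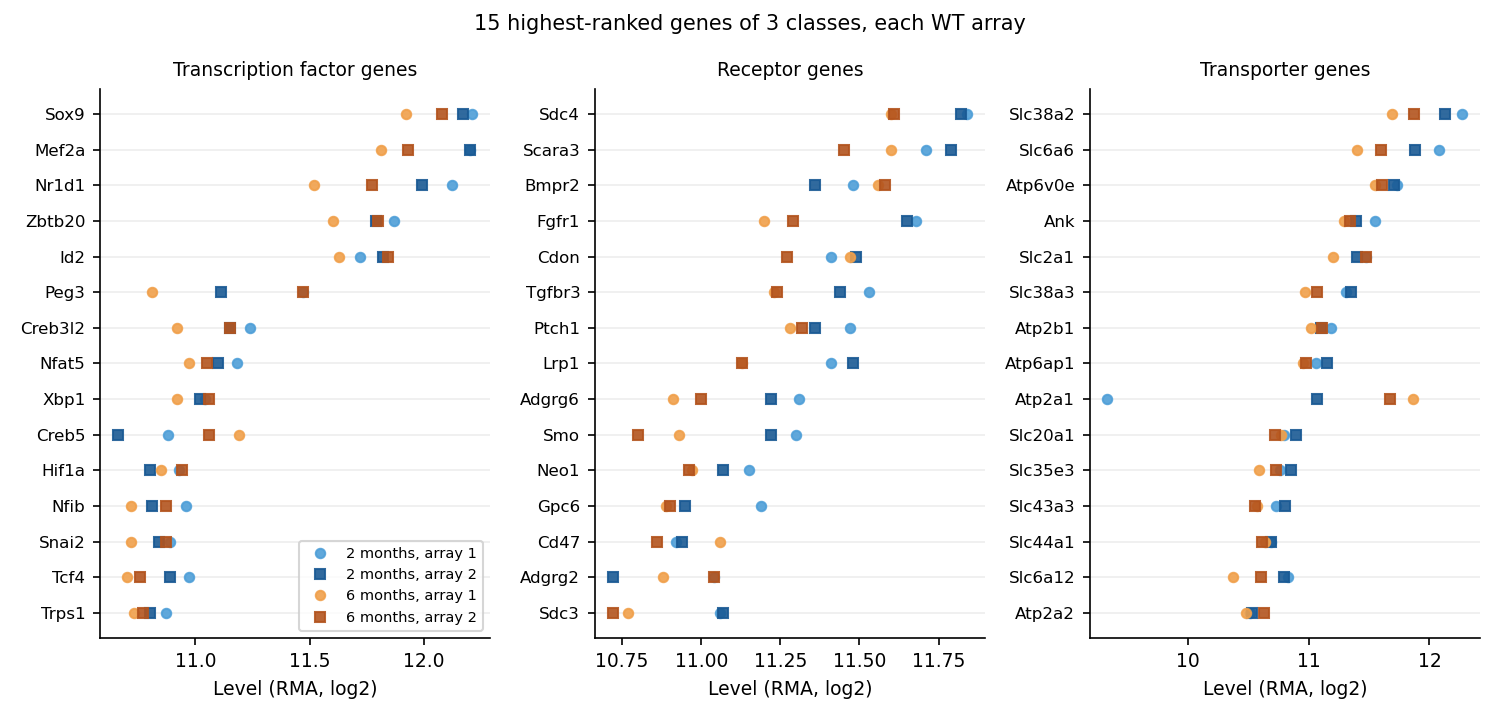
Log2 level (RMA) of the 15 highest-ranked transcription factor, receptor and transporter genes in each of the 4 WT arrays, ordered by rank, with a separate axis for each class; blue points are 2 month arrays and orange points 6 month arrays. The widest gene is Atp2a1, from 9.33 to 11.86, and Sox9 spans 11.92 to 12.21.

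The values above allow the ages to be compared. Earlier results of these data were known when members and lists were chosen, so that their choice cannot be taken as independent of age. In a limma fit on all 8 arrays, 0 of 15526 genes passed an adjusted p of 0.05 between 6 and 2 month WT arrays, and 2071 (13.3%) had an unadjusted p below 0.05. Limma with other filters, normalizations, probe set choices and priors, with the replicate block, and without each array in turn made 0 calls as well. With 2 arrays against 2, an exact permutation test of a single gene cannot go below 0.333, and so counts and values are given as descriptions.

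The share of matrix genes lower at 6 months stood above that of all genes, given as a description with no test. Both 6 month arrays were below both 2 month arrays in 105 of 202 matrix genes tested (52.0%), against 35.9% of all genes, and above them in 12, or 5.94% against 13.5%. At an unadjusted p below 0.05, 51 matrix genes were lower (25.2%, all genes 9.55%) and 3 were higher (1.49%, all genes 3.79%). The other classes stood near the share of all genes. Lower without overlap were 36.9% of transcription factor genes, 32.9% of receptor genes and 37.4% of transporter genes. The median difference of all genes tested was -0.06 on the log2 scale, and that of matrix genes -0.14. Beside this stand the muscle list, higher in both 6 month arrays for all 18 genes, and the neutrophil list, which split both ages, and their part in the difference was not tested.

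Every matrix subgroup contributed to the 105 lower genes, but not every subgroup stood above the 35.9% of all genes. Small leucine-rich proteoglycans (31.2%) and basement membrane genes (30.4%) were below that share, and matricellular and adhesive glycoproteins (39.7%) were near it. The other subgroups were above it, with cartilage glycoproteins highest (82.6%) and collagens next. Collagens of all kinds were lower without overlap in 28 of 40 genes tested and higher in 0, and cartilage glycoproteins were lower in 19 of 23 and higher in 0. Matricellular and adhesive glycoproteins were lower in 23 of 58 and higher in 7, and elastic fibre genes were lower in 10 of 20. Basement membrane genes were lower in 7 of 23, large proteoglycans and link proteins in 7 of 12 and bone matrix genes in 6 of 10. Small leucine-rich proteoglycans were lower in 5 of 16 and higher in 2. The fitted difference was -0.84 ± 0.17 (SE) for Col2a1, -0.53 ± 0.11 for Ccn2, -0.28 ± 0.11 for Acan and -0.01 ± 0.08 for Chad, none of which passed. Chad, Dcn, Bgn and Prelp lay near the upper end of the scale, and whether this narrowed their differences was not tested. Nuclear respiratory chain genes were higher without overlap in 31 of 76 (40.8%, all genes 13.5%) and lower in 5 (6.58%, all genes 35.9%). The skeletal muscle list was higher in the same arrays for 18 of 18 genes, and its part in this count was not tested.

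Single members with the most extreme statistics in the top 10% did not pass either. Cilp2, a relative of Cilp, had the lowest statistic of the members, with 10.05 and 10.12 at 2 months and 9.11 and 9.21 at 6 months, a difference of -0.93 ± 0.11 (SE, limma adjusted p = 0.119). It was followed by Fzd9, a Wnt receptor (-0.62), Pdgfrl (-0.48), the matrix protein Spon1 (-0.47) and the interleukin 6 receptor Il6ra (-0.72), with limma adjusted p of 0.162 to 0.192. On the other side Ackr3, a chemokine scavenger receptor, read 9.43 and 9.36 at 2 months and 9.77 and 9.84 at 6 months, a difference of 0.41 ± 0.08 (SE, limma adjusted p = 0.193). Nr4a2 (1.03), Klf4 (0.39), the mitochondrial pyruvate carrier gene Mpc1 (0.40) and the fatty acid receptor Cd36 (0.78) followed, with limma adjusted p of 0.235 to 0.313. Cd36 is also used by muscle, fat and endothelium, and its array order (8.52, 9.42, 9.77 and 9.73) was that of the muscle list. Mpc1 (10.07, 10.30, 10.67 and 10.49) had that array order too.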

How the data were processed

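The deposited values were log2 signals per probe set, made by the authors with RMA per the submitters' processing notes; no source used here gives its version, the array design or a genome build. Per the labels' protocols, RNA was extracted with Trizol and labelled as biotin cRNA. Gene names came from the platform annotation: of 41345 probe sets 23521 had 1 gene symbol, 1814 several (not used) and 16010 none. Ages were compared with limma 3.58.1 (R 4.3.3): 4 group means over 8 arrays, 4 residual degrees of freedom and eBayes. Benjamini-Hochberg covered the 15526 genes whose mean over the 8 arrays was at least 6.21 (30th percentile). The script was tested on simulated data. Array number limits the precision. Named genes were the 20 highest of all, the 20 highest matrix and 15 highest genes of each other class, the 2 highest of each subgroup, the 3 on either side of each class limit, all nucleoside transporters and adenosine receptors, and by age the 5 highest and 5 lowest statistics of members in the top 10%. Further genes were named after their values were seen. Members and lists were chosen with earlier results of these data known. Promoters were RefSeq's (GRCm38.p6), 250 bases before to 50 after each start. Alternatives varied the filter, normalization, probe set, replicate block, prior and arrays.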

Additional observations from a re-analysis of the deposited data

Results flagged for a closer look

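In 59 gene groups, marker lists and named subgroups examined over the 4 WT arrays, 2 had 1 array standing apart from the other 3 by Dixon's criterion, where chance alone gives about 1 in 20. The mean of the nerve and glia markers was 8.0 in 2 months array 1, above 7.55, 7.59 and 7.61 in the others, and the neurofilament gene Nefl contributed most, with 6.63 against 5.50, 5.37 and 5.66. The mean of the HOX genes was 7.23 in 6 months array 1, below 7.32, 7.34 and 7.33 in the others.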

How the results depend on the processing

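The replicate numbers of the labels did not pair the WT arrays: deviations of same-numbered WT arrays of the 2 ages correlated at r = -0.394 over genes, and with the replicate number as a block 0 genes were called by limma (1956 at an unadjusted p below 0.05). With the numbers of the 6 month WT arrays crossed, an alternative chosen after the data were seen, 3 genes were called. Without each array in turn, calls ranged from 0 to 0, with 1174 to 2155 genes at an unadjusted p below 0.05. Counting the top 5% (1109 genes) instead of the top 10% gave 49 transcription factor, 43 receptor and 27 transporter genes, fewer by construction, and 61 matrix genes. Without each WT array in turn, the count of matrix genes in the top 10% ranged from 71 to 76, of transcription factor genes from 86 to 88, of receptor genes from 67 to 70 and of transporter genes from 62 to 64. The mean over a gene's probe sets moved 15 of 146 named levels by more than 1 SD, and the other settings tried moved 0. The 10 age differences named for single genes kept their sign under the 17 alternative settings run for them. These genes were picked for extreme statistics, and their arrays did not overlap between ages. Leaving out 1 array could therefore not reverse a sign, and the kept signs say little about how firm the differences are. The direction of the class counts by age was not recomputed. The signal of a probe set, and the pooling of tissues into 2 arrays per age, limit what these values can show.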
